A study of Mus musculus with 4 samples.

Results

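The homeobox genes described here are *Otx1*, *Otx2*, *Lmx1a*, *Lmx1b*, *Hmx2*, *Hmx3*, *Dlx5*, *Gbx2*, *Prox1* and *Msx1*, 10 of the 29924 gene names on an Agilent mouse array. They were taken by gene symbol, with every gene probe that carries the symbol. This rule uses no measured value, but the list was drawn up with earlier results of these data known. They hold 12 of the 39429 gene probes, because *Otx2* and *Lmx1b* have 2 probes each. All 12 probes and all 10 genes were bright enough to be tested, and 21042 genes were tested in all.

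Cochlear ducts were taken on embryonic day E14.5 from mice on the NMRI background whose dams had received 4 mg of tamoxifen by mouth at E12.5, for mutants and controls alike. Mutant pools, called *Sox2-Tbx2LOF*, had the genotype Sox2(creERT2);Tbx2(fl/fl), and the methods give 1 CreERT2 allele and a Cre reporter (R26 mTmG) for such mice. Control pools are labelled Tbx2(fl/n.d.) and are called cre-negative in the methods, so they carried the floxed *Tbx2* allele without the Cre knock-in, which sits in the *Sox2* locus and can remove *Tbx2* only from cells that express *Sox2*. Each of 4 2-colour arrays held 1 mutant and 1 control pool of the same sex, female on arrays 1 and 2 and male on arrays 3 and 4. Dyes were swapped within each sex, with the mutant in Cy5 on the odd-numbered arrays (1 and 3) and in Cy3 on the even-numbered ones (2 and 4). The pools were independent, and each held ducts of several embryos. As whole ducts were measured, fewer cells of a type and less RNA per cell cannot be told apart.

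Homeobox genes encode transcription factors that bind DNA through a homeodomain, and many are expressed in restricted parts of an embryonic epithelium. In the otocyst and the cochlear duct that grows out of it, their overlapping domains help to divide the epithelium into a roof, a lateral wall and a floor with the prosensory domain. TBX2, the T-box transcription factor deleted here, is found in the floor of the duct. The comparison asked whether the RNA of the 10 regional genes differed between whole ducts of mutant and control pools. Only the mutant pools carried the Cre knock-in, so its part in a difference cannot be told apart from that of the deletion.

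No gene of the 10 passed the test. The largest difference was that of *Hmx2*, a mean log2 ratio of mutant over control of -0.22, followed by *Otx2* at 0.15. None of the 10 reached an adjusted p below 0.05 with limma, in a comparison where 1091 of 21042 genes did (5.18%), 615 of them lower (2.92%) and 476 higher (2.26%) in the mutant. With a fold change of at least 1.5 as a further condition, 93 genes passed (0.442%). The 95% intervals of all 10 genes lay within a fold change of 1.5, and the widest reach of any of them was 1.27-fold, for *Hmx2*. These intervals are not adjusted for the number of genes.

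Several facts about the arrays bear on these values. The log2 ratios of all probes correlated between arrays with the same dye assignment (Pearson r of 0.679 for arrays 1 and 3 and 0.616 for arrays 2 and 4), but between arrays of opposite assignment r lay between -0.10 and 0.071. Each gene was therefore fitted with a dye term beside the genotype. The signal of the targeted gene *Tbx2* had log2 ratios of -0.25, -0.05, -0.13 and -0.03 on arrays 1 to 4, an adjusted p of 0.124. Whether its probe lies in the deleted stretch is not given in the sources used here, so it does not check the labels. One probe for *Esr1*, the receptor whose domain is part of CreERT2, was well above background in all 4 mutant pools (8.54 to 8.81) and in 0 control pools (6.42 to 6.57), while its other 3 probes were above background in no pool. All 10 markers of duct epithelium were above background in all 8 pools. At an adjusted p below 0.05 (limma), 2 of them rose (*Gata3*, *Tectb*) and 2 fell (*Jag1*, *Otoa*). The ratio of their summed signal per array was 1.09 to 1.18, while their median log2 ratio was 0.03. Bright probes weigh most in such a sum. From control to mutant, the mean level rose from 16.12 to 16.80 for *Tectb* and from 16.08 to 16.42 for *Gata3*. The summed ratio is therefore no measure of the amount of epithelium in the pools.

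Promoters were available for 8 of the 10 genes, as 13 windows of 250 bases before to 50 bases after a transcription start in RefSeq (build GRCm38.p6). *Otx1* and *Dlx5* have no window in the table used. The probe positions given below are those of the array files, in build mm9, and are not comparable with the promoter coordinates. The files do not say whether a probe lies in a coding exon or a UTR. One window is shown because it holds the sequence of a probe, that of the dimmer *Otx2* probe. Its 60 bases, in capitals, lie between 227 and 168 bases before the start of the third *Otx2* window (chr14:48665060-48665359, minus strand), that is, outside a transcript that begins there. The other 2 windows are shown because *Hmx2* and *Hmx3* are neighbouring paralogues on chromosome 7 that gave the smallest adjusted p and the widest spread of ratios among the 10 genes. They are the first *Hmx2* window (chr7:131548507-131548806, plus strand), with a TATAAA in capitals 29 bases before the start, and the *Hmx3* window (chr7:131542713-131543012, plus strand), in which nothing is marked.
Otx2, window 3: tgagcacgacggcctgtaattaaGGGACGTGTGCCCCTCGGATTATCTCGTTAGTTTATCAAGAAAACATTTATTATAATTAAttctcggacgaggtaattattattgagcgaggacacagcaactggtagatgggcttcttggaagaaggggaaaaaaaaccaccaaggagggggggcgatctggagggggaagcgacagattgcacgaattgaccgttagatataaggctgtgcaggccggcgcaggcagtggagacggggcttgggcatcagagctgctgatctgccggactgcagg
Hmx2, window 1: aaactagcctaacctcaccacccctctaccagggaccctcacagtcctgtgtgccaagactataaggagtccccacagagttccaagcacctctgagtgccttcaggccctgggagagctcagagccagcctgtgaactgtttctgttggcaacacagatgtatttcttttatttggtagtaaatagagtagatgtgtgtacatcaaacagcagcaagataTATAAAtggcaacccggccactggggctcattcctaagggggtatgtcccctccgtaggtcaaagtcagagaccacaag
Hmx3: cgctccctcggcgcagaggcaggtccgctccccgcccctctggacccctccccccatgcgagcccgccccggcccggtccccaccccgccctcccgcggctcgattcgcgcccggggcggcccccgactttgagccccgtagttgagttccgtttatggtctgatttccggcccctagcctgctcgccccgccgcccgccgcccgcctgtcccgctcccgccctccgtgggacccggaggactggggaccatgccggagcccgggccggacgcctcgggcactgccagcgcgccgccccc

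The *Hmx2* window shown had 50% G and C and 2 CG pairs, the second *Hmx2* window (chr7:131554043-131554342) had 67.7% and 22 CG pairs, and the *Hmx3* window had 78.0% and 39 CG pairs. The median share of G and C was 59.3% over the 13 windows and 52.7% over all 32851 windows. Both strands were searched for GGTGTGA, the core bound by T-box proteins, which was in 0 of the 13 windows and in 3.98% of all windows. TAATTA, a core bound by many homeodomains and the same on both strands, was in 2 of the 13 windows, both of *Otx2*, and in 5.29% of all windows. The *Otx2* window shown above holds 3 of them. TATAAA was in 3 of the 13 windows, in 1 each of *Otx2*, *Hmx2* and *Prox1*, and in 13.6% of all windows. The TAATTA and the TATAAA of the first *Otx2* window do not overlap. A match is a run of letters in these windows and nothing was measured there.

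*Otx1* and *Otx2* encode orthodenticle-type factors. *Otx2* marks the nonsensory roof of the cochlear duct, the later Reissner's membrane, and *Otx1* is needed for the lateral semicircular canal. The brighter *Otx2* probe (chr14:49277855-49277914, minus strand) had normalized log2 signals of 15.26, 15.25, 15.28 and 15.28 in mutant pools 1 to 4 and of 15.08, 15.41, 15.12 and 14.87 in the controls. The mutant pools were nearly equal, and the controls spread above and below them, with female control 2 the highest and male control 4 the lowest. The log2 ratio of *Otx2* was 0.15 ± 0.23 (SD, n = 4), higher in the mutant on 3 of 4 arrays (limma, adjusted p = 0.355, 95% interval -0.04 to 0.33, up to 1.26-fold higher). Array 2 held the one negative ratio (-0.16). Fits with an array left out keep the dye term and weight both dye assignments equally, so they are not plain means. Without array 2 the fitted log2 ratio was 0.29 (limma, adjusted p = 0.00619), whereas without array 4 it was 0.01. With array 2 left out, array 4 is the only one with the mutant in Cy3. That adjusted p therefore holds no spread of *Otx2* between arrays of that dye assignment.

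The dimmer *Otx2* probe (chr14:49284952-49285011), whose sequence is capitalised above, gave mutant levels of 8.11, 8.09, 8.06 and 8.15 and control levels of 8.01, 8.23, 8.06 and 8.16. Its groups overlapped fully, with a mean log2 ratio of -0.01 ± 0.10 (SD, n = 4) and a 95% interval of -0.10 to 0.08. The difference between the 2 *Otx2* probes was not tested.

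*Otx1* (chr11:21895767-21895826, minus strand) was dim. Its levels were 7.51, 7.53, 7.49 and 7.47 in the mutant pools and 7.40, 7.55, 7.32 and 7.37 in the control pools, so that 3 controls lay below all mutants and control 2 above them. The log2 ratio was 0.09 ± 0.08 (SD, n = 4) with a 95% interval of 0.00 to 0.18 and an adjusted p of 0.232 (limma). In Agilent's processed signals, to which no constant is added, it was 0.16 (adjusted p = 0.225). As for *Otx2*, the array with the negative ratio was array 2.

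**Figure D1:**
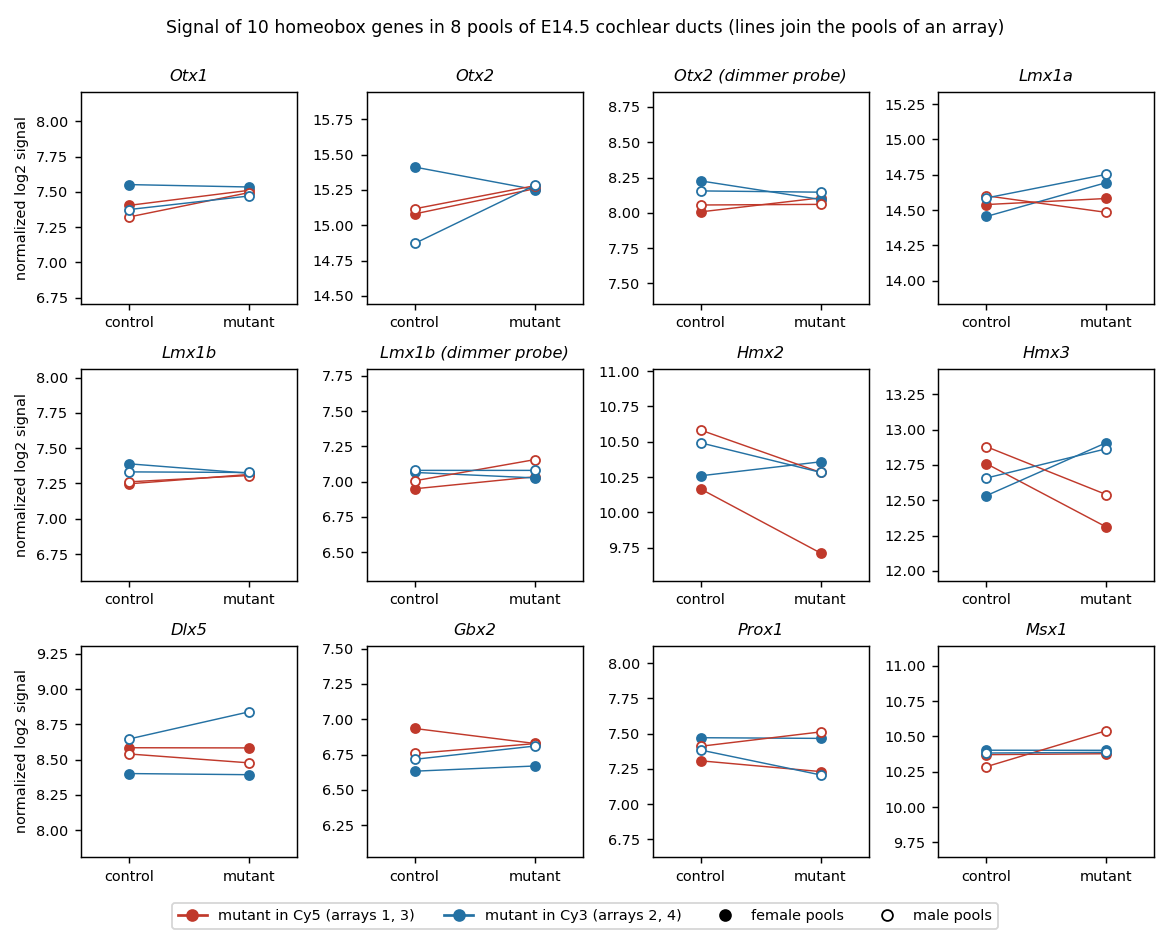
Normalized log2 signal of the 12 probes of the 10 homeobox genes in the control and mutant pools, with a line joining the 2 pools of an array. Red lines are arrays with the mutant in Cy5, blue lines those with the mutant in Cy3, and open symbols are male pools. All panels span the same range of log2 units. The lines of *Hmx3* fall where the mutant was in Cy5 and rise where it was in Cy3, and those of *Hmx2* fall on 3 of 4 arrays.

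*Lmx1a* and *Lmx1b* encode LIM-homeodomain factors. *Lmx1a* is expressed in nonsensory otic epithelium and its loss in the dreher mouse disturbs the boundaries between sensory and nonsensory parts of the ear. The bright *Lmx1a* probe (chr1:169778804-169778863, plus strand) read 14.58, 14.69, 14.48 and 14.75 in the mutant pools and 14.54, 14.45, 14.60 and 14.59 in the control pools. The groups overlapped, with 3 mutant pools near or above the highest control and mutant 3 below most of them. The log2 ratio of *Lmx1a* was 0.08 ± 0.16 (SD, n = 4; limma, adjusted p = 0.300), with a 95% interval of -0.01 to 0.18. The fitted log2 ratio was 0.04 without array 1 and 0.12 without array 3.

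For *Lmx1b* the brighter probe (chr2:33495011-33495070, minus strand) lay between 7.31 and 7.33 in the mutant pools and between 7.25 and 7.39 in the controls. This was one of the smallest differences among the 10 genes, a log2 ratio of 0.01 ± 0.06 (SD, n = 4; 95% interval -0.07 to 0.09, adjusted p = 0.911). The dimmer *Lmx1b* probe (chr2:33420253-33420312) had a mean log2 ratio of 0.05 ± 0.09 (SD, n = 4; 95% interval -0.03 to 0.13). Both probes overlapped between genotypes.

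*Hmx2* and *Hmx3* encode NK-type homeodomain factors of the dorsal and lateral otic epithelium and are required for the vestibular part of the ear. *Hmx2* (chr7:138700012-138700071, plus strand) had levels of 9.71, 10.36, 10.28 and 10.28 in the mutant pools and of 10.17, 10.26, 10.58 and 10.49 in the control pools. Mutant pool 1 was the lowest of the 8, the male mutants lay below both male controls, and mutant 2 lay just above its control. The log2 ratios of *Hmx2* were -0.45, 0.10, -0.30 and -0.21, with a mean of -0.22 (limma SE 0.06, adjusted p = 0.0694, 95% interval -0.34 to -0.09). This was the smallest adjusted p among the 10 genes.

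The position of *Hmx2* relative to the threshold moved with the processing. Its adjusted p (limma) was 0.0201 where arrays were centred on the median in place of loess. Without array 2 it was 0.00951, at a fitted log2 ratio of -0.29. Array 4 was then the only one with the mutant in Cy3, so that p holds no spread between arrays of that assignment. Compared without their pairing on the arrays, mutant and control pools gave the same mean as the main fit, -0.22. The 95% interval then ran from -0.55 to 0.12 and the adjusted p was 0.814 (limma). The mean was -0.38 over the arrays with the mutant in Cy5 and -0.06 over those with the mutant in Cy3.

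*Hmx3* (chr7:138688330-138688389, plus strand) read 12.31, 12.91, 12.54 and 12.86 in the mutant pools and 12.76, 12.53, 12.88 and 12.66 in the control pools. Its log2 ratios had the sign of the dye assignment, -0.45 and -0.34 with the mutant in Cy5 and 0.37 and 0.21 with the mutant in Cy3. The mean was -0.05 with limma's 95% interval of -0.15 to 0.05 and an adjusted p of 0.561. Without the dye term the interval widened to between -0.38 and 0.28. With single arrays left out, the fitted log2 ratio ranged from -0.09 (without array 2) to -0.01 (without array 4). Those fits keep the dye term and weight both dye assignments equally. Their range therefore does not show how far plain means of the remaining arrays would move. The array ratios of *Hmx3* spread more widely than those of any other gene of the 10, although its mean was near 0.

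**Figure D2:**
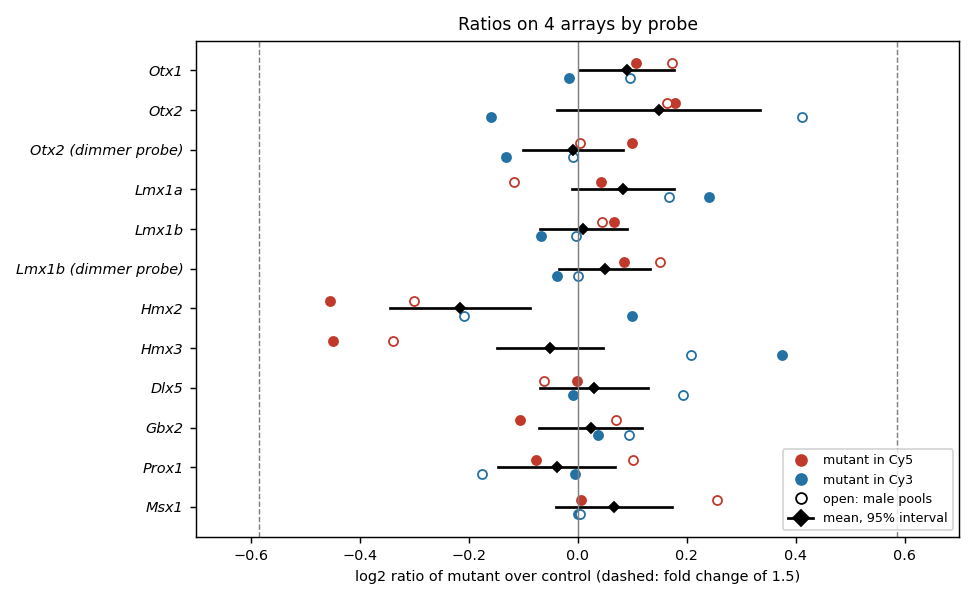
Log2 ratio of mutant over control for each probe on the 4 arrays (red, mutant in Cy5; blue, mutant in Cy3; open, male pools) with the mean and its 95% interval (black). Dashed lines stand at a fold change of 1.5. All intervals lie inside the dashed lines, and those of *Hmx2* and *Otx1* do not include 0.

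*Dlx5* encodes a distal-less factor of the dorsal otocyst and the semicircular canals. Its probe (chr6:6828063-6828122, minus strand) gave 8.58, 8.39, 8.48 and 8.84 in the mutant and 8.58, 8.40, 8.54 and 8.65 in the control pools. On arrays 1 and 2 the 2 pools were equal to within 0.01, and mutant pool 4 was the highest of the 8. The log2 ratio of *Dlx5* was 0.03 ± 0.11 (SD, n = 4; limma, adjusted p = 0.758, 95% interval -0.07 to 0.13).

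*Gbx2*, a gastrulation brain homeobox gene of the dorsal otocyst and the endolymphatic duct, was at the limit of detection. Its probe (chr1:91825013-91825072, minus strand) was well above background in 3 mutant and 2 control pools, while the other 9 genes were above it in all 8. The levels lay between 6.67 and 6.83 in the mutant and between 6.63 and 6.93 in the control pools, and the log2 ratio was 0.02 ± 0.09 (SD, n = 4; 95% interval -0.07 to 0.12, adjusted p = 0.807). The *Gbx2* ratio changed sign with the processing. It was 0.15 in Agilent's processed signals (95% interval -0.06 to 0.36), 0.04 with a smaller constant added before the logarithm (offset 10), and -0.04 in the value table of the authors (95% interval -0.15 to 0.07).

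*Prox1* is the prospero-type member, a factor of the prosensory domain that is later kept in the pillar and Deiters' cells. Its probe (chr1:191945785-191945844, minus strand) had levels of 7.23, 7.47, 7.51 and 7.21 in mutant pools and of 7.31, 7.47, 7.41 and 7.38 in controls. The mutant pools were the more spread, with pools 1 and 4 below all controls and pool 3 above them. The log2 ratio of *Prox1* was -0.04 ± 0.12 (SD, n = 4; limma, adjusted p = 0.700, 95% interval -0.15 to 0.07). In Agilent's processed signals the interval was -0.25 to 0.16.

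*Msx1* encodes an msh-type homeodomain repressor that responds to BMP signalling in many epithelia. The levels (chr5:38212305-38212364, minus strand) were 10.38, 10.40, 10.54 and 10.39 in mutant pools and 10.37, 10.40, 10.29 and 10.38 in controls. On arrays 1, 2 and 4 the 2 pools differed by less than 0.01, and array 3 alone gave a ratio of 0.26. The mean log2 ratio of *Msx1* was 0.07 ± 0.13 (SD, n = 4; limma, adjusted p = 0.483, 95% interval -0.04 to 0.17). The fitted log2 ratio was 0.00 without array 3 and 0.13 without array 1.

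Read as a group, the 10 genes sat close to the rest of the array. Their median log2 ratio was 0.03 beside 0.00 over all tested genes, and the median size of the ratio was 0.06 beside 0.04. At an unadjusted p below 0.05, 2 of the 10 (20%) passed, *Otx1* and *Hmx2*, against 20.2% of all tested genes. No gene of the 10 had the same direction on all 4 arrays, as 18.2% of tested genes had. Over the fits with other processing and with single arrays left out, the widest reach of a 95% interval lay between 1.20-fold and 1.46-fold.

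**Figure D3:**
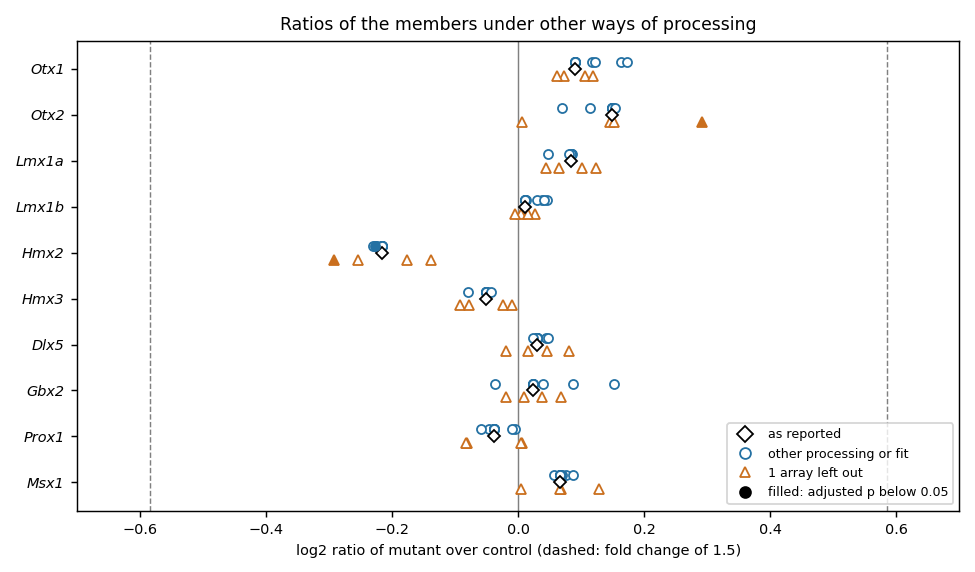
Log2 ratio of mutant over control for each of the 10 genes as reported (diamonds), under other ways of processing or fitting (blue circles) and with 1 array left out (orange triangles). Filled symbols have an adjusted p below 0.05. Filled triangles appear for *Otx2* and *Hmx2* without array 2, and a filled circle for *Hmx2* under median centring at -0.23.

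The ratios of the 2 female and the 2 male arrays were compared with an interaction term. Each sex had a single array of each dye assignment, so only large differences could be detected. A gene that did not pass is therefore not shown to be alike in the sexes. The largest difference was that of *Otx2*, with a log2 ratio of 0.01 in female and of 0.29 in male pools, male minus female 0.28 (95% interval -0.01 to 0.56). *Msx1* followed, with 0.00 in female and 0.13 in male pools. Every gene of the 10 had an adjusted p of 1.00 for this difference, and over all genes 0 of 21042 had one below 0.05 (limma), with 558 at an unadjusted p below 0.05.

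Paralogues of the 10 genes were examined as a group, and 6 of the 11 on the array were tested. *Crx*, *Hmx1*, *Dlx6*, *Gbx1* and *Prox2* were well above background in 0 pools. The 6 tested were all distal-less or msh-type genes, so the other families could not be compared. Of the 6, 3 fell and 0 rose, beside 2.92% lower and 2.26% higher over all tested genes. Their median log2 ratio was -0.15 beside 0.00 over all tested genes. The other 3, *Dlx3*, *Dlx4* and *Msx3*, had log2 ratios between -0.11 and -0.02.

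*Dlx1* and *Dlx2* are neighbours on chromosome 2, distal-less factors known from forebrain interneurons and neural crest derivatives. *Dlx1* (chr2:71371499-71371558) had levels of 8.85, 8.69, 8.70 and 8.85 in the mutant pools and of 9.53, 9.24, 9.56 and 9.36 in the control pools. Every mutant pool lay below every control pool. *Dlx1* fell by 0.65 ± 0.16 on the log2 scale (SD, n = 4; limma, adjusted p = 0.000175), a fold change of 1.57, and it was the one paralogue that also passed the fold condition. Its other probe was above background in 0 pools.

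*Dlx2* (chr2:71381553-71381612) had levels of 10.45, 10.31, 10.28 and 10.54 in the mutant pools and of 11.19, 10.56, 11.14 and 10.88 in the control pools, again without overlap. It fell by 0.55 ± 0.29 on the log2 scale (SD, n = 4; limma, adjusted p = 0.000237), a fold change of 1.46. The ratios of *Dlx2* were larger with the mutant in Cy5 (-0.74 and -0.85) than in Cy3 (-0.26 and -0.34), and its adjusted p was 0.0754 without the dye term and 0.0603 without the pairing of pools.

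*Msx2* (chr13:53562318-53562377), the msh-type paralogue of *Msx1*, had levels of 9.04, 8.86 and 8.95 in mutant pools 1, 2 and 4 and of 9.08, 9.18 and 9.30 in control pools 1, 2 and 4. Both pools of array 3 were at 9.0, and the groups overlapped. The log2 ratios of *Msx2* were -0.32 and -0.34 with the mutant in Cy3 and -0.05 and 0.00 with the mutant in Cy5. *Msx2* fell by 0.18 ± 0.18 (SD, n = 4; limma, adjusted p = 0.0279), but its adjusted p was above the threshold with each single array left out (0.0605 to 0.116).

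**Figure D4:**
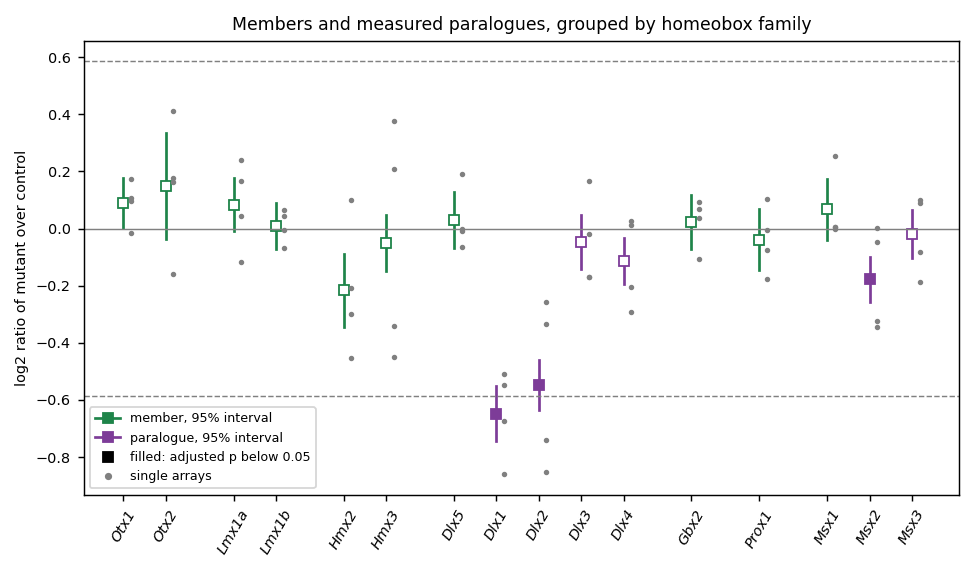
Mean log2 ratio of mutant over control with its 95% interval for the 10 genes (green) and their 6 tested paralogues (purple), grouped by homeobox family, with single arrays as grey points and dashed lines at a fold change of 1.5. Filled squares have an adjusted p below 0.05. In the distal-less group *Dlx1* and *Dlx2* lie at -0.65 and -0.55 while *Dlx5* lies at 0.03.

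Markers of neurons moved in the same pools, although the spiral ganglion had been removed at dissection according to the methods. Of 12 neuronal genes 10 were tested, and 8 of them fell (*Tubb3*, *Stmn2*, *Stmn3*, *Pou4f1*, *Elavl3*, *Elavl4*, *Nefl*, *Nefm*) while *Isl1* rose, with a median log2 ratio of -0.45. *Neurod1* and *Neurog1* were too dim to be tested. *Isl1*, which is also a gene of the prosensory domain, carried 65.9% to 79.9% of the summed signal of the 10. That sum was 37194 to 40344 in the mutant and 35354 to 43265 in the control pools, a ratio per array of 0.92 to 1.14. Summed without *Isl1*, a choice made after seeing the data, the other 9 gave 8061 to 9601 in the mutant and 10898 to 14765 in the control pools, a ratio per array of 0.64 to 0.74. Of 8 genes of Schwann cell precursors and glia, 3 fell (*Foxd3*, *Fabp7*, *Egr2*), with a median of -0.09 and a ratio of summed signal of 0.94 to 1.12. The part of these cells in the values of *Dlx1*, *Dlx2* and *Msx2* was not tested. None of the 7 melanocyte, 5 blood, 6 endothelial and 5 macrophage genes tested passed the test. Of 9 mesenchymal genes *Col1a1* rose.

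A list of 27 other homeobox genes of the inner ear, 25 of them tested, had a median log2 ratio of 0.03. *Emx2*, which sets the orientation of hair cells, rose by 0.35 ± 0.13 (SD, n = 4; limma, adjusted p = 0.0011). *Isl1*, a LIM-homeodomain factor of otic neurons and the prosensory domain, rose by 0.20 ± 0.16 (adjusted p = 0.0245). *Pou4f1*, a POU-homeodomain factor of sensory neurons, fell by 0.75 ± 0.13 (adjusted p = 0.000172), and the remaining 22 did not pass.

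Other genes that mark regions of the duct were counted as well. Of 16 tested genes listed for the roof, the lateral wall and nonsensory epithelium, 4 rose. Among them were *Fst*, a follistatin that binds activins (0.54 ± 0.18), *Gata3*, a zinc-finger factor of the otic epithelium (0.34 ± 0.13), and *Bmp2*, a BMP ligand (0.30 ± 0.22). *Gata3* was also listed as a marker of duct epithelium, and whether each gene is confined to these regions was not tested. *Gata2* rose by 0.16 ± 0.05. *Fgf10*, an FGF ligand, was among those that fell, by 0.47 ± 0.05. The median of the 16 was 0.05.

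Of 10 genes of the floor and the prosensory domain, all tested, 2 rose and 3 fell. *Hey2*, a Notch-responsive repressor, rose by 0.36 ± 0.03, and *Isl1* is the other. *Fgf20*, a prosensory FGF ligand, fell by 0.54 ± 0.15, *Lfng*, a modifier of Notch, fell by 0.52 ± 0.07, and the Notch ligand *Jag1* fell by 0.19 ± 0.08 (log2 ratios, SD, n = 4 arrays each). The median log2 ratio was -0.03.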

How the data were processed

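Each array compared 1 mutant with 1 control pool of E14.5 cochlear ducts, and pools, sexes and dyes were assigned from the sample labels. The authors deposited the output of Agilent Feature Extraction 10.7.3.1, whose intensity values are unnormalized spot means and medians of the surrounding background for Cy3 and Cy5, and a processed intensity with background subtracted and dyes normalized. The deposited log10 ratio of processed Cy5 over Cy3 was not used. Other deposited columns are flags per spot (outlier, saturated, well above background). The deposited series value table holds a score per probe by the authors that matched a signed mutant over control fold change (Pearson r of 0.912 to 0.942 with the log2 ratios computed here, median 1 on each array). How it was scaled is not given in the sources used here. The array name in the methods differs from that in the file headers, and symbols and mm9 positions were taken from the files.

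Background was corrected with normexp (offset 50), ratios were normalized by loess within arrays without control and outlier-flagged spots, and a probe's 4 spots were averaged where not flagged. Levels per pool come from loess and Aquantile. A probe was tested if it stood well above background in 4 or more of the 8 channel measurements, and the brightest probe stood for a gene. Genes were fitted with limma 3.58.1 (R 4.3.3) with genotype direction and a dye intercept, and p values were adjusted by Benjamini-Hochberg over 21042 genes. The 2 residual degrees of freedom were combined with a prior of 5.65. Median spot intensity was 263 to 292 in Cy3 over a background of 25, and 496 to 563 in Cy5 over 85 to 95. The 4 arrays limit the precision. The study's methods used an unpaired SAM test, which was not run. A limma fit of the separate channels without pairing stood for it as an alternative. Pools on an array share its hybridisation. The fit of separate channels with the array as replicate block is equivalent to the ratio fit, so its 1091 genes are no separate check. The procedure was tested on simulated data.

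The 10 genes, the paralogues, the other lists and the marker lists were chosen with earlier results of these data known. All probes of the 10 genes are given. Of the paralogues those with an adjusted p below 0.05 are described, and of the other lists up to 6 such genes each. Some genes of these lists are not reported here. Alternatives were Agilent's processed signals, an offset of 10, median centring, other filters on dim probes, no dye term, unpaired channels, the mean over probes, the value table and each array left out. Promoters came from RefSeq's table of GRCm38.p6. Arrays of E18.5 were not analysed.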

Additional observations from a re-analysis of the deposited data

Results flagged for a closer look

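In 36 groups of 4 values (the mutant levels, the control levels and the ratios of the 12 probes), 4 had a highest or lowest value set apart from the other 3 beyond Dixon's 95% limit, which chance passes in about 1 in 20 groups. The level of *Hmx2* in mutant pool 1 (9.71) was below the other mutant pools, and that of *Gbx2* in mutant pool 2 (6.67) was below the others on a probe near background. For *Msx1*, mutant pool 3 (10.54) lay above the other mutant pools, and the log2 ratio of array 3 (0.26) lay apart from the others, which were near 0. The cause was not tested for any of them.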

How the results depend on the processing

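With the array as replicate block, which is equivalent to the ratio fit, the counts were the same. They were 1091 genes with an adjusted p below 0.05 and 93 with a fold change of at least 1.5 besides. The first count was 616 with Agilent's processed signals, 414 with the value table, 264 without the dye term and 217 without the replicate block, and it ranged from 411 to 1278 with 1 array left out. The second was 169 with processed signals and 141 with the value table. Of the 10 homeobox genes 1 passed under median centring (*Hmx2*, -0.23) and between 0 and 2 with 1 array left out. Log2 ratios with 1 array left out come from fits with the dye term and are not plain means. In those fits a single array stands for one of the dye assignments. With single arrays left out the log2 ratio ranged from 0.0060 to 0.29 for *Otx2*, from -0.29 to -0.14 for *Hmx2*, from 0.043 to 0.12 for *Lmx1a*, from -0.093 to -0.0094 for *Hmx3*, from 0.0044 to 0.13 for *Msx1*, from -0.0057 to 0.026 for *Lmx1b*, from -0.020 to 0.080 for *Dlx5*, from -0.020 to 0.067 for *Gbx2* and from -0.083 to 0.0056 for *Prox1*, and from -0.045 to 0.0068 for *Msx3*. *Gbx2* was -0.038 in the value table. *Msx2* did not pass with processed signals (adjusted p = 0.0559), the value table (0.0727), no dye term (0.457) or no replicate block (0.218). The causes were not tested. Requiring all 8 measurements above background left *Gbx2* untested. All arrays came from 1 slide and 1 scan, so a slide or scan block was not run. With an offset of 10 in place of 50 the ratios of the dim probes of *Otx1* (0.12), *Gbx2* (0.039) and *Prox1* (-0.059) moved away from 0, and that of *Lmx1b* (0.011) stayed near it.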
